A study of Mus musculus with 6 samples.

Results

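The genes that detect foreign or misplaced nucleic acids, and the adaptors that pass that signal on, were compared between cells labelled IRF2 and cells labelled GFP control. The set held 10 genes, chosen by name as sensors (Ifih1, Ddx58, Dhx58, Tlr3, Eif2ak2, Zbp1 and Cgas), adaptors (Mavs and Sting1) and a kinase (Tbk1), out of 18193 genes that had a probe set of their own on the array. All probe sets annotated to a member by its older or current symbol (Ddx58 or Rigi, Tmem173 or Sting1, Mb21d1 or Cgas) were taken, which gave 22 probe sets. The cells were iKAP primary cultured mouse cells from a colorectal cancer model. The 2 groups were stable IRF2 open reading frame cells and stable GFP control cells, both made with the pLenti6.3 lentiviral plasmid and both kept in DMEM that held a tetracycline-free additive. Each group had 3 arrays, and whether they were grown as separate cultures is not in the labels; the p-values therefore describe the array-to-array spread alone, and that spread may be technical. All 6 samples carry the same culture number, and the labels do not give its clonality.

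Cells detect viral RNA and DNA, and their own nucleic acids when these lie in the wrong place, through receptors that feed into a few shared adaptors. RIG-I-like receptors in the cytosol bind RNA and signal through MAVS on mitochondria, TLR3 binds RNA in endosomes, and cGAS binds DNA and makes a messenger that activates STING. These routes meet at the kinase TBK1, which activates IRF3 and so induces interferons, and many of the sensors are themselves induced by interferon.

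The targeted gene went against its label: Irf2 read 37.0, 36.6 and 35.2 on the arrays labelled IRF2, against 65.4, 60.5 and 62.0 on the GFP control arrays (log2 fold change -0.79, SE 0.06, limma adjusted p = 1.73e-07). The labels do not say whether this probe set reads the introduced open reading frame, and whether the labels of the 2 groups were exchanged was not tested. The group is therefore called "labelled IRF2", every direction in the text rests on the labels, and an exchange would turn each rise into a fall and each fall into a rise.

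By these labels, the sensors separated into strongly raised, slightly raised and unraised genes, and the adaptors and the kinase were not raised. Tlr3, Ifih1 and Dhx58 rose by 2.24 to 3.44-fold on the arrays labelled IRF2. Ddx58, Eif2ak2 and Cgas rose by 1.20 to 1.28-fold. Zbp1 and Mavs did not pass the test, and Sting1 and Tbk1 fell slightly (-0.10 and -0.12 on the log2 scale). In either direction 8 of the 10 genes passed the test, against 36.3% of all 12795 genes tested. In counts, 6 of the 10 genes rose, against 16.5%, and 2 fell, against 19.8%. The 3 genes that rose at least 2-fold compare with 0.438% of all genes tested. The arrays of the groups did not overlap in 8 of the 10 genes, against 46.2% of all genes tested. The 10 genes were chosen with earlier results of these data known, so these shares describe the list and are no test of it. The median log2 fold change of the 10 genes was 0.27, and that of all genes tested was -0.00070. A log2 fold change here divides the labelled IRF2 level by the GFP control level and comes, with its standard error (SE), from a limma fit over all genes tested. Each gene is represented by its brightest probe set, adjusted p-values are Benjamini-Hochberg values over those 12795 genes, and genes under 0.05 passed. All 10 genes were above the filter on low values, Dhx58 only through its level on the arrays labelled IRF2. Dhx58 is counted among the 8, the 6 and the 3 genes above, and those counts were not made without it. With 16 added before the log its log2 fold change came to 0.53, which is under 2-fold.

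The array values are linear probe set intensities, which compare a probe set between arrays but not one gene with another. Array medians lay between 18.2 and 18.7. The 3 tryptophan control probe sets are for a bacterial gene that mouse RNA lacks; they read between 3.69 and 6.52 and mark the bottom of the scale. With 3 arrays a group, their number limits the precision. Of the 8 epithelial markers the keratin genes Krt8, Krt18 and Krt19 were bright, Cldn7 lay near the filter, and the villin gene Vil1 read at most 7.03. The epithelial adhesion genes were lower on the arrays labelled IRF2. Cdh1 fell by 0.75 on the log2 scale (SE 0.04) and Cdh17 fell by 0.57 (SE 0.03). Epcam fell by 0.81 (SE 0.11), or changed by -0.43 with its probe sets averaged. Krt8 rose by 0.50 (SE 0.02) and Krt18 by 0.08 (SE 0.02), a call that Krt18 lost without the intensity trend (limma adjusted p = 0.0866; range over all alternatives 0.00104 to 0.0866). The summed intensity of the epithelial markers, almost all of it from keratins, was 15943 to 16072.5 on the arrays labelled IRF2 and 14442 to 14583 on the GFP control arrays. Of 10 immune markers 9 had a probe set, with a sum of 301 to 313 on the arrays labelled IRF2 and 271 to 307 on the GFP control arrays. Ptprc and Itgam stayed within the range of the tryptophan controls on every array, whereas Cd14 read 137 ± 11.3 on the arrays labelled IRF2 and 120.1 ± 8.80 on the GFP control arrays (SD over 3 arrays each), and Cd68 read 77.95 ± 2.94 on the arrays labelled IRF2 and 77.6 ± 6.85 on the GFP control arrays. Cd14 was the 1 of 5 immune markers tested that passed (0.18, SE 0.06, limma adjusted p = 0.0350). Its call was lost in 7 of 15 alternatives, among them the fits without the replicate 2 or 3 array labelled IRF2 (limma adjusted p = 0.131 and 0.152) and without the replicate 1 or 2 GFP control array (0.0789 and 0.137), and its adjusted p ran from 0.00590 to 0.152. Of 7 fibroblast markers, summing to 135 to 144 on the arrays labelled IRF2 and 131 to 139 on the GFP control arrays, 4 were tested. Pdgfra rose by 0.70 (SE 0.10), or 0.36 with its probe sets averaged, and Pdgfrb fell by 0.40 (SE 0.08), a call lost with its probe sets averaged (-0.16, limma adjusted p = 0.0640; range over all alternatives 2.53e-04 to 0.0640). Of 5 endothelial markers, summing to 85.4 to 96.5 on the arrays labelled IRF2 and 92.0 to 103 on the GFP control arrays, 3 were tested and Egfl7 fell by 0.22 (SE 0.07, limma adjusted p = 0.0315). That call was lost without the intensity trend (0.0643), without the replicate 1 or 2 array labelled IRF2 (limma adjusted p = 0.0605 and 0.143) and without the replicate 3 GFP control array (0.161), and its adjusted p ran from 0.00559 to 0.161. Pecam1 and Tek stayed within the range of the tryptophan controls. The 18S rRNA control probe set read 2099 to 2254 on the arrays labelled IRF2 and 1798 to 2034 on the GFP control arrays, and the part of these marker and control differences in the results was not tested. In RNA from a whole culture, fewer expressing cells and less RNA per cell cannot be told apart.

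Promoter windows are shown first because interferon regulatory factors, Irf2 among them, are known to bind repeats built on GAAA. RefSeq windows on GRCm38.p6, from 250 bases before to 50 bases after an annotated start, were searched on both strands for 7 of the 10 genes: Ifih1, Ddx58, Tlr3, Eif2ak2, Cgas, Mavs and Tbk1. Dhx58, Zbp1 and Sting1 were not searched. The repeat GAAANNGAAA was found in 3 of the 7 windows, those of Ifih1, Ddx58 and Eif2ak2, and in 3.44% of all 32851 windows. In each of these genes it lay just after the annotated start, beginning at base 33 after the start in Ifih1, base 3 in Ddx58 and base 19 in Eif2ak2. The 30 bases around each repeat are given because these genes are among those that rose, with the repeat in capitals, 5′ to 3′ on the gene's strand. They lie at chr2:62646206-62646235, chr4:40239804-40239833 and chr17:78882535-78882564, all on the minus strand. In Ddx58 the repeat is on the opposite strand, so that its letters appear as the reverse complement.
Ifih1: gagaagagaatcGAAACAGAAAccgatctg
Ddx58: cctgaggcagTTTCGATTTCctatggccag
Eif2ak2: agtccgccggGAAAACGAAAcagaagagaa
The shorter core AANNGAAA is the end of the longer repeat, so every window with the repeat also holds the core. The core was found in 4 of the 7 windows and in 23.9% of all windows. In Ddx58 a further core began 59 bases before the start. In Ifih1 a further core began at base 29 after the start and overlapped the repeat. Besides Ifih1, Ddx58 and Eif2ak2, the core occurred in Tlr3, one of the strongly raised sensors. There it lay on the opposite strand, with its first base 59 bases before the start. The 250 bases before that start are shown with the core in capitals (chr8:45410381-45410630, minus strand).
Tlr3: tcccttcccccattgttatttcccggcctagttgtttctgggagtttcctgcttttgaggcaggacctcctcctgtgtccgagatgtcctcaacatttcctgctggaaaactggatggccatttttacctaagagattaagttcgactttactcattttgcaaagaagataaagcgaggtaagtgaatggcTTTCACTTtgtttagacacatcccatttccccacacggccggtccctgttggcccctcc
The windows of Cgas, Mavs and Tbk1 held neither set of letters. A match is a run of letters in these windows, and binding was not measured.

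Among the RIG-I-like receptors, Ifih1 encodes MDA5, which binds long RNA duplexes. It read 137, 139 and 139 on the arrays labelled IRF2, against 55.7, 50.5 and 53.6 on the GFP control arrays. All 3 arrays labelled IRF2 lay far above all 3 GFP control arrays. The difference came to 2.60-fold, or 1.38 on the log2 scale (SE 0.05, limma adjusted p = 5.80e-11), and was the 38th largest in size among all genes tested in either direction. Ifih1 has 1 probe set on the array.

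Ddx58 encodes RIG-I, which recognises RNA with a 5′ triphosphate end. Its brightest probe set read 55.4, 61.2 and 60.7 on the arrays labelled IRF2, against 46.4, 45.0 and 47.5 on the GFP control arrays. The groups did not overlap, but the gap between them was small beside that of Ifih1. The log2 fold change was 0.35 (SE 0.06, limma adjusted p = 5.05e-04). Of the other probe sets of Ddx58, 1 averaged 11.7 ± 1.17 on the arrays labelled IRF2 and 9.68 ± 1.02 on the GFP control arrays (SD over 3 arrays each), under the filter on low values. The other stayed between 5.97 and 7.60 on all arrays. In the mean of all 3 probe sets the log2 fold change came to 0.22, with an adjusted p of 0.0183 (range over all alternatives 2.89e-04 to 0.0183).

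Dhx58 encodes LGP2, the receptor of this family that lacks the signalling domains and modulates the other members. The brightest of its 3 probe sets read 20.9, 20.2 and 18.1 on the arrays labelled IRF2, against 9.17, 8.64 and 8.54 on the GFP control arrays. Every array labelled IRF2 lay well above every GFP control array, by 2.24-fold in the means of log2 values or 1.16 on the log2 scale (SE 0.09, limma adjusted p = 1.12e-07). The GFP control level lay under the intensity filter of 11.3, so Dhx58 was tested only through its level on the arrays labelled IRF2. A second probe set read 8.14, 7.94 and 9.79 on the arrays labelled IRF2, against 4.77, 4.25 and 5.50 on the GFP control arrays, the same direction at the bottom of the scale. The third stayed between 5.55 and 6.36, within the tryptophan control range, and gave -0.01. With 16 added before the log, Dhx58 came to 0.53.

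**Figure D1:**
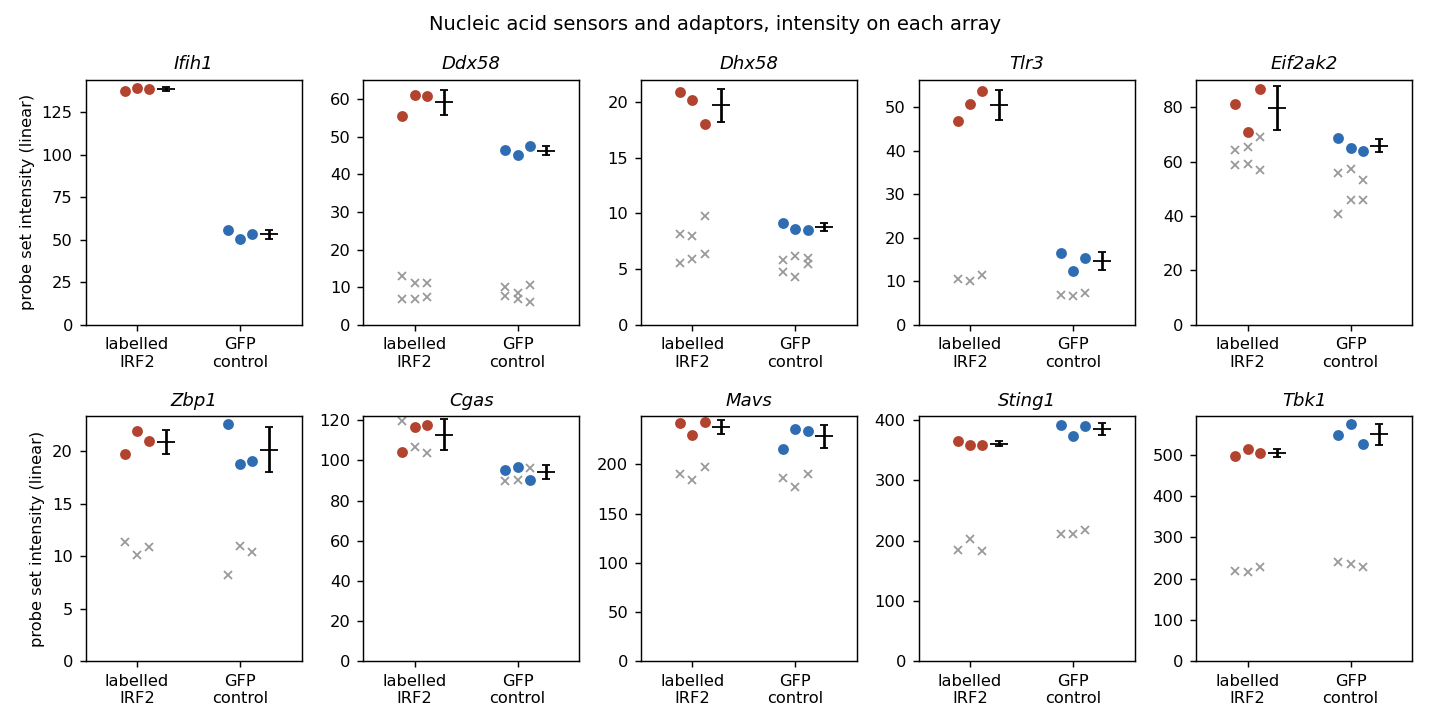
Linear intensity of the 10 genes on each array (vertical axis, starting at 0), with the 3 arrays labelled IRF2 left of the 3 GFP control arrays. Filled points are the brightest probe set, with its mean and SD (n = 3) as black bars, and grey crosses are the other probe sets. Ifih1, Dhx58 and Tlr3 show wide gaps between the groups, while the points of Zbp1 and Mavs overlap.

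Tlr3, the endosomal receptor for RNA duplexes, had the largest log2 fold change of the 10 genes in its brightest probe set, but Ifih1 led with 16 added before the log (Tlr3 1.11, Ifih1 1.16) and with probe sets averaged (Tlr3 1.20, Ifih1 1.38). Its brighter probe set read 46.9, 50.8 and 53.8 on the arrays labelled IRF2, against 16.4, 12.4 and 15.4 on the GFP control arrays. The GFP control arrays were dim but above the filter, and the groups were far apart. The rise was 3.44-fold, or 1.78 on the log2 scale (SE 0.10, limma adjusted p = 3.01e-09), the 15th largest in size among all genes tested in either direction. The dimmer probe set read 10.6, 10.03 and 11.4 on the arrays labelled IRF2, against 6.91, 6.53 and 7.37 on the GFP control arrays, or 0.62 on the log2 scale (SE 0.09).

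Eif2ak2 encodes PKR, the kinase that binds RNA duplexes and halts translation by phosphorylating eIF2 alpha. Its brightest probe set read 81.2, 70.9 and 86.9 on the arrays labelled IRF2, against 68.7, 65.1 and 64.1 on the GFP control arrays. The lowest array labelled IRF2 lay just above the highest GFP control array. The log2 fold change was 0.27 (SE 0.07, limma adjusted p = 0.00768). The other probe sets of the gene gave 0.26 (SE 0.06) and 0.40 (SE 0.06), so all 3 were higher on the arrays labelled IRF2.

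Zbp1 senses left-handed nucleic acids and can start necroptosis. It read 19.7, 21.9 and 21.0 on the arrays labelled IRF2, against 22.6, 18.8 and 19.1 on the GFP control arrays. The highest and the lowest of these 6 values were both GFP control arrays, so the groups overlapped. The log2 fold change was 0.05 (SE 0.09, limma adjusted p = 0.700), with a 95% interval from -0.14 to 0.25. Its dimmer probe set gave 0.13 (SE 0.11) and did not pass either.

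Cgas, the cytosolic DNA sensor, read 104, 117 and 118 on the arrays labelled IRF2, against 95.3, 96.6 and 90.0 on the GFP control arrays. The groups did not overlap, and the log2 fold change was 0.26 (SE 0.06, limma adjusted p = 0.00189). The second probe set read 119, 107 and 103 on the arrays labelled IRF2, against 89.9, 90.0 and 96.4 on the GFP control arrays. It gave 0.25 (SE 0.06), the same direction and nearly the same size.

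The adaptors did not follow the sensors upward. Mavs, the mitochondrial adaptor of the RIG-I-like receptors, read 242, 230.2 and 243 on the arrays labelled IRF2, against 215, 236 and 234 on the GFP control arrays. The ranges overlapped, and the log2 fold change was 0.06 (SE 0.04, limma adjusted p = 0.281). Its 95% interval ran from -0.03 to 0.15, and the second probe set gave 0.04 (SE 0.04).

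Sting1, the adaptor of cGAS in the endoplasmic reticulum, read 365, 358 and 358 on the arrays labelled IRF2, against 392, 374 and 390.4 on the GFP control arrays. All 3 arrays labelled IRF2 were slightly lower, by -0.10 on the log2 scale (SE 0.03, limma adjusted p = 0.0244). The second probe set read 184, 203 and 183 on the arrays labelled IRF2, against 211, 211 and 218 on the GFP control arrays, a change of -0.17 (SE 0.04). The call was lost under quantile normalization (adjusted p = 0.0757) and without the intensity trend (0.0716). It was also lost without the replicate 2 or 3 array labelled IRF2 (limma adjusted p = 0.0801 and 0.0640) and without the replicate 1 or 3 GFP control array (0.0811 and 0.0970). Over all alternatives the adjusted p ran from 0.00672 to 0.0970.

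Tbk1, the kinase on which the MAVS, STING and TLR3 routes meet, read 496, 515 and 503 on the arrays labelled IRF2, against 549, 575 and 525 on the GFP control arrays. The arrays labelled IRF2 were lower without overlap, by -0.12 on the log2 scale (SE 0.03, limma adjusted p = 0.00941). The second probe set read 220, 216 and 229.1 on the arrays labelled IRF2, against 240.1, 236 and 229.4 on the GFP control arrays, a change of -0.09 (SE 0.04). The call was lost without the intensity trend (adjusted p = 0.0707; range over all alternatives 0.00395 to 0.0707).

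Probe sets of the same gene were compared in a separate fit of all 45037 non-control probe sets without a filter. Of the 22 probe sets of the 10 genes, 11 were higher, against 7.49% of all probe sets, 2 were lower, against 8.80%, and 9 did not pass. All probe sets of a gene had the same sign in 9 of the 10 genes, a share that was not counted over all genes. Among them, Ifih1 has no second probe set to compare, and no probe set of Zbp1 or Mavs passed. The exception was Dhx58, through the probe set at the bottom of the scale. The brighter probe set of Sting1 and the dimmer one of Tbk1 did not pass in this larger fit (limma adjusted p = 0.0623 and 0.175). The probe sets within a gene share their samples and are not replicates of the comparison.

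**Figure D2:**
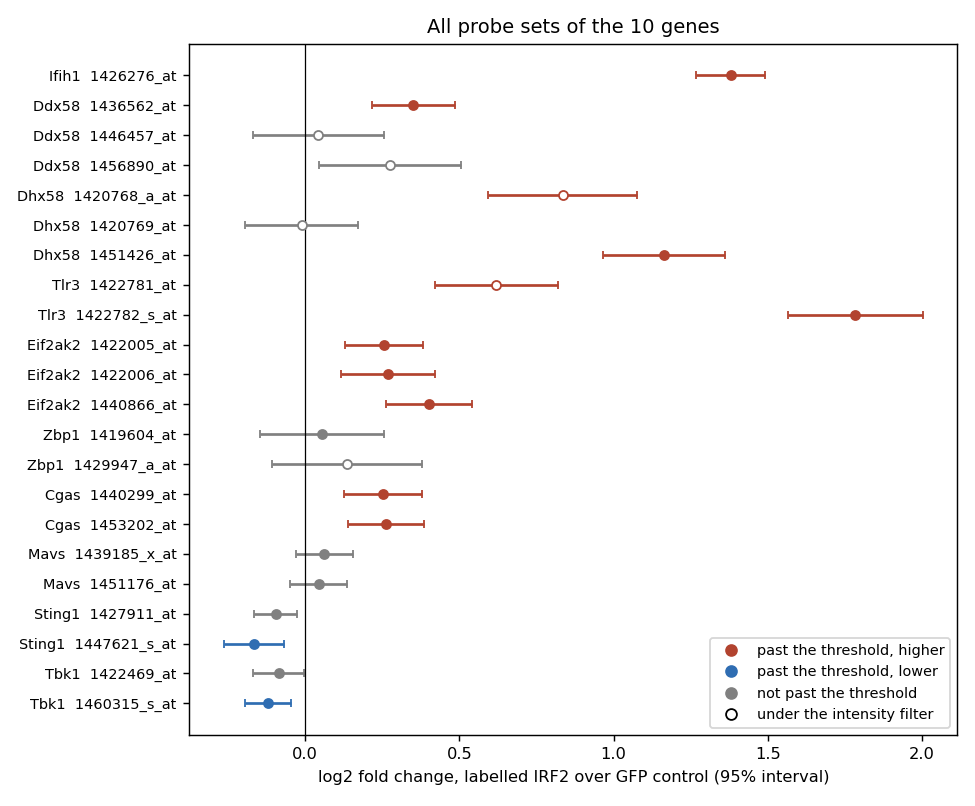
Log2 fold change, labelled IRF2 over GFP control (horizontal axis), with its 95% interval for each of the 22 probe sets, in the fit of all probe sets. Open symbols are under the intensity filter of 11.3. The 2 Tlr3 probe sets are both to the right of 0, at 0.62 and 1.78, and both Mavs intervals cross 0.

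Counts in the lists of other pathway genes are to be set against the 16.5% of all genes tested that rose and the 19.8% that fell. Of 20 regulators of the RIG-I-like receptors and MAVS, 17 were tested, 3 rose and 3 fell, near those shares; their median change was -0.0037 (log2). Cyld, a deubiquitinase that removes chains from RIG-I, read 289 ± 4.43 on the arrays labelled IRF2 and 338 ± 2.40 on the GFP control arrays (here and below, mean ± SD of 3 arrays each). Its log2 fold change was -0.23 (SE 0.03), but -0.09 with its probe sets averaged (limma adjusted p = 0.108; range over all alternatives 1.54e-05 to 0.108). Zcchc3, a co-receptor in RNA and DNA sensing, fell by 0.45 on the log2 scale (SE 0.09), and by 0.20 with 16 added before the log. It read 11.1 ± 0.973 on the arrays labelled IRF2, under the filter of 11.3, and was tested only through the 15.1 ± 0.882 of the GFP control arrays. Prkra, the PKR activator PACT, rose by 0.18 (SE 0.04), a call lost when its probe sets were averaged (0.09, limma adjusted p = 0.355; range over all alternatives 7.15e-04 to 0.355). The zinc finger antiviral gene Zc3hav1 was higher by 0.11 (SE 0.03), and turned to -0.07 with its probe sets averaged.

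Among genes of DNA sensing and its limits, 15 of 20 were tested, 4 rose, against 16.5% of all genes, and 3 fell, against 19.8%, with a median of 0.06. Dnase2a, the lysosomal nuclease that clears DNA, read 77.4 ± 3.82 on the arrays labelled IRF2 and 48.7 ± 2.64 on the GFP control arrays (log2 fold change 0.67, SE 0.06). Ifi35, an interferon-induced gene, rose by 0.44 (SE 0.03), and Xrcc5, the Ku80 subunit of a DNA end-binding complex, by 0.31 (SE 0.05). Rnaseh2b, a subunit of the nuclease that removes ribonucleotides from DNA, fell by 0.27 (SE 0.04). The DNA sensor gene Ifi204 stayed within the range of the tryptophan controls on every array.

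Of the Toll-like receptors for nucleic acids and their partners, 8 of 12 were tested, 1 rose, against 16.5% of all genes, and 0 fell in limma, against 19.8%. At an unadjusted p under 0.05, 3 rose and 0 fell, and the share of all genes at that level was not counted. Unadjusted counts are given only for lists with 0 calls in a direction. The gene that rose, Unc93b1, encodes the chaperone that carries TLR3 and related receptors to endosomes. It read 36.0 ± 2.20 on the arrays labelled IRF2 and 25.4 ± 0.709 on the GFP control arrays. Its log2 fold change was 0.50 (SE 0.08), and 0.33 with 16 added before the log. Ticam1, which encodes TRIF, the adaptor of TLR3, differed by -0.06 (SE 0.07, limma adjusted p = 0.594). Tlr7 and Tlr13 lay under the filter.

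Of 19 downstream kinases, adaptors and factors, 15 were tested, 2 rose, against 16.5% of all genes, and 4 fell, against 19.8%, with a median of -0.02. Azi2, a TBK1-binding adaptor also called NAP1, read 309 ± 8.78 on the arrays labelled IRF2 and 377 ± 1.33 on the GFP control arrays (log2 fold change -0.29, SE 0.03). Tradd, an adaptor in the MAVS complex, fell by 0.18 (SE 0.04). The kinase gene Map3k7 fell by 0.16 (SE 0.03), a call lost when its probe sets were averaged (limma adjusted p = 0.0532, the highest over all alternatives, of which the lowest was 6.98e-04). Ikbkg, which encodes NEMO, rose by 0.26 (SE 0.04; 0.15 with its probe sets averaged). Irf3, the factor that TBK1 phosphorylates, read 290.2 ± 2.21 on the arrays labelled IRF2 and 291 ± 4.85 on the GFP control arrays, and its sign turned between alternatives. Irf7 rose by 0.42 (SE 0.10; 0.19 with 16 added before the log), with a GFP control level of 11.3 ± 1.20, at the filter.

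In the eIF2 alpha kinase pathway, apart from Eif2ak2, 9 of 10 listed genes were tested, 5 fell, against 19.8% of all genes, and 0 rose in limma, against 16.5%, with a median of -0.14. At an unadjusted p under 0.05, 6 fell and 0 rose, with no share of all genes at that level to set beside them. Eif2ak1, the heme-regulated kinase, read 60.6 ± 2.60 on the arrays labelled IRF2 and 76.2 ± 0.834 on the GFP control arrays (log2 fold change -0.33, SE 0.06). Ppp1r15a, which encodes the phosphatase subunit GADD34, fell by 0.26 (SE 0.05). The kinase inhibitor gene Dnajc3 and the stress factor gene Ddit3 fell by 0.15 (SE 0.03) and 0.14 (SE 0.04). In the mean of the probe sets 3 of these genes fell, and the calls of Dnajc3 (limma adjusted p = 0.292, range over all alternatives 0.00118 to 0.292) and Ddit3 (0.315, range 0.00368 to 0.315) were lost.

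Of the partners of ZBP1 in necroptosis, 6 of 7 were tested, 2 fell, against 19.8% of all genes, and 0 rose in limma, against 16.5%, with a median of -0.03. At an unadjusted p under 0.05, 2 fell and 1 rose, again without a share of all genes at that level. Ripk3, the kinase that ZBP1 engages, read 359 ± 11.6 on the arrays labelled IRF2 and 548 ± 12.9 on the GFP control arrays. This was the largest change of the list, -0.61 on the log2 scale (SE 0.03, limma adjusted p = 1.46e-09). Cflar, an inhibitor of caspase-8, was lower by 0.10 (SE 0.04), and its call was lost in 9 of 15 alternatives. Those include the fits without the replicate 1 or 3 array labelled IRF2 (limma adjusted p = 0.0979 and 0.159) and without the replicate 1 or 3 GFP control array (0.0863 and 0.183). Its adjusted p ran from 0.0275 to 0.183 over all alternatives. Mlkl, the executor of necroptosis, differed by -0.03 (SE 0.03, limma adjusted p = 0.495).

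**Figure D3:**
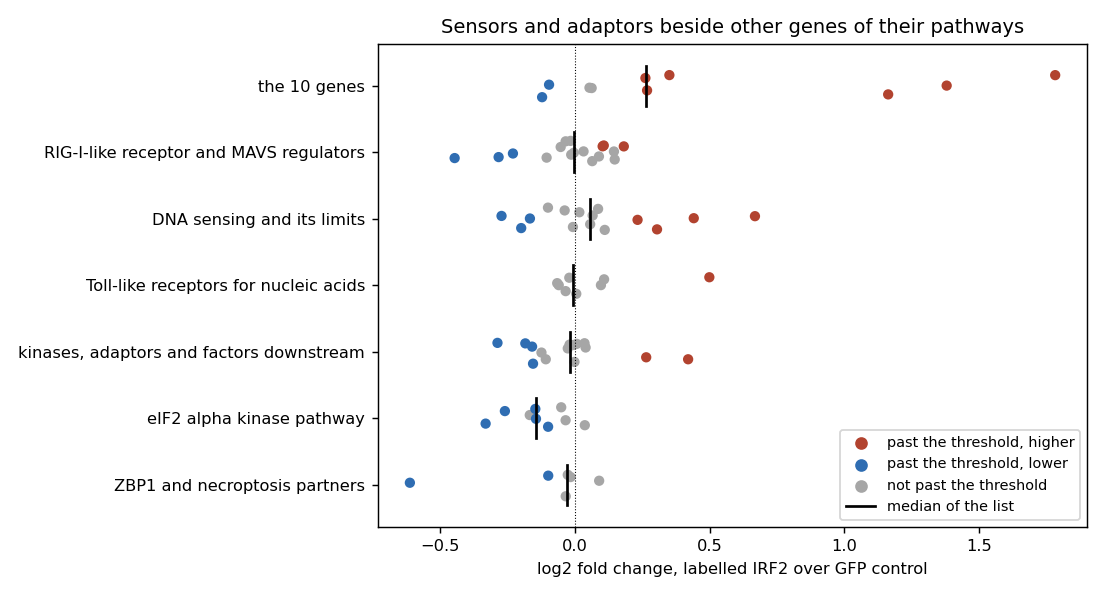
Log2 fold change, labelled IRF2 over GFP control (horizontal axis), of the 10 genes in the top row and of 6 lists of other pathway genes below, 1 point per gene tested, with the median of each row as a black line. The top row has a median of 0.27, and the other medians lie between -0.14 and 0.06.

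The listed interferon genes, with Ifng among them, were dim. Of 9 listed, 5 had a probe set of their own, and all 5 lay under the filter. Ifnb1 read 10.5, 9.68 and 10.3 on the arrays labelled IRF2, against 9.75, 8.64 and 11.7 on the GFP control arrays, and the groups overlapped. They also overlapped in Ifna4, Ifna5 and Ifng. In Ifna2 they did not, at 7.62 ± 0.164 on the arrays labelled IRF2 and 7.04 ± 0.209 on the GFP control arrays. The summed intensity of the 5 interferon genes was 41.9 to 44.4 on the arrays labelled IRF2 and 40.8 to 46.2 on the GFP control arrays. Irf9, which joins the STAT proteins downstream of the interferon receptor, read 44.1 ± 1.48 on the arrays labelled IRF2 and 31.8 ± 1.22 on the GFP control arrays (log2 fold change 0.47, SE 0.07). Irf1 read 182 ± 7.14 on the arrays labelled IRF2 and 172 ± 8.48 on the GFP control arrays, and did not pass (0.08, SE 0.05).

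The genes whose log2 intensities were most like those of each raised sensor were found by Pearson correlation over the 6 arrays, as a description in which the group difference sets most of r. For Tlr3 the closest was Parp14, an interferon-induced ADP-ribosyltransferase gene (r = 0.9990, n = 6), which itself rose by 2.06 (SE 0.10). The gene closest to Ifih1 was Lrrc8c, a volume-regulated anion channel subunit (r = 0.9995), which rose by 0.38 (SE 0.03). Dhx58 was closest to Sdc2, a syndecan (r = 0.9997), which rose by 0.40 (SE 0.03). Ddx58 was closest to Dst (r = 0.9988), which rose by 0.10 (SE 0.03). Cgas was closest to Zfp950 (r = 0.9955), which rose by 0.22 (SE 0.07). Eif2ak2 was closest to Nudt5 (r = 0.9993), which did not pass (0.06, SE 0.03, limma adjusted p = 0.175).

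**Figure D4:**
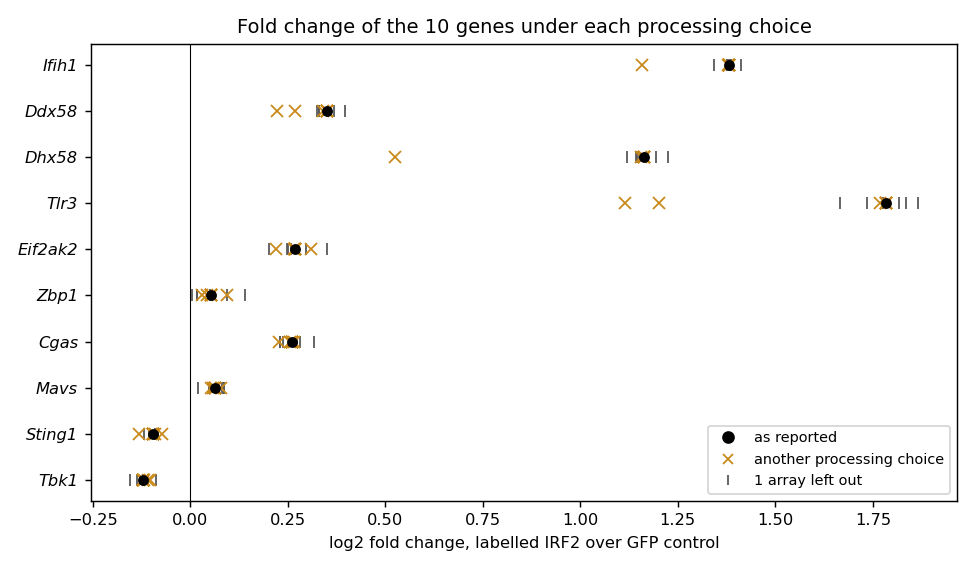
Log2 fold change, labelled IRF2 over GFP control (horizontal axis), of each of the 10 genes as reported (black), under other processing choices (crosses) and with 1 array left out (short ticks). No gene crosses 0, and the widest spreads are those of Tlr3, from 1.11 to 1.87, and Dhx58, from 0.53 to 1.22.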

How the data were processed

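Total RNA of mouse iKAP cells was measured on 6 Affymetrix arrays. The authors deposited a linear intensity for each of 45101 probe sets on each array. The submitters' processing notes list MAS5 without saying what it did; its version and the scaling are not given in these sources. No further scaling was applied. GEO's platform annotation gave the gene names: of 45037 non-control probe sets, 34945 had 1 gene symbol, 932 had several and 9160 had none. Gene numbers of 34741 were found in a RefSeq table of GRCm38.p6, used for symbols and synonyms.

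The brightest probe set stood for a gene. Genes at or under the 40th percentile of non-control probe set means (an intensity of 11.3) were left out. limma 3.58.1, run in R 4.3.3, fitted the log2 values (lmFit and trended eBayes; 4 residual degrees of freedom), two-sided, with Benjamini-Hochberg adjustment over 12795 genes. The fit was tested on simulated data. Alternatives were the mean of a gene's probe sets, each probe set on its own, no filter, a filter at the 60th percentile (33.5), 16 added before the log, quantile normalization, no intensity trend, robust eBayes, a replicate block and each array left out. Promoter windows came from a RefSeq table of the same assembly. The members, lists, rules and alternatives were chosen with earlier results of these data known. Besides the members, the named genes were Irf1, Irf2, Irf3, Irf7 and Irf9, up to 4 genes of each list with the smallest p, and, for each member past the threshold, the 2 genes most correlated with it, not all of which are reported; genes named only as dim are further members of the lists. Every cell type marker past the threshold is named, and the alternatives were run on these after seeing the data.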

Additional observations from a re-analysis of the deposited data

How the results depend on the processing

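Of 146 repeats of the members' fold changes over 15 alternatives, 139 kept their direction and their side of the threshold, 7 lost the call and 0 reversed. Tested probe set by probe set, 3513 probe sets were higher and 4246 lower, against 2111 and 2531 genes, since more features were tested. Leaving out 1 array gave 1772 to 1982 higher and 2075 to 2478 lower genes. Of the members, 2 were called lower as reported, 1 under quantile normalization, 0 without the intensity trend (Sting1 and Tbk1 then had limma adjusted p of 0.0716 and 0.0707) and 1 to 2 with 1 array left out. Sting1 came to -0.073 under quantile normalization, -0.096 without the trend and -0.118 to -0.083 with 1 array left out. Tbk1 stayed at -0.12 without the trend. The cause of these losses was not tested. Dhx58 had no value under the stricter filter or with probe sets averaged, and Tlr3 and Zbp1 had none under the stricter filter, because they fell below it. Irf3 turned to 0.017 when probe sets were averaged, to 0.0081 under quantile normalization, and ran from -0.019 to 0.0033 with 1 array left out; Zc3hav1 turned to -0.074 when they were averaged. Of 180 list counts 21 moved by over 1.5 times. In the mean of probe sets, the MAVS regulators had 1 higher gene in place of 3, the downstream genes 2 lower in place of 4 and the eIF2 list 3 lower in place of 5. Under the stricter filter, the MAVS regulators had 1 lower in place of 3, the Toll-like receptor list 0 higher in place of 1 and the downstream genes 1 higher in place of 2. The Toll-like receptor list had 2 higher in 3 settings, and the ZBP1 list 1 higher in place of 0 in 3 settings and 1 lower in place of 2 in 9.

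Deviations of same-numbered arrays from their group means had correlations of 0.07, -0.08 and -7.71e-04. Differently numbered arrays gave -0.11 to 0.11, so this check cannot tell whether the numbers pair the samples. With the replicate block, 2141 genes were higher and 2537 lower, and the members' counts stayed at 6 and 2. Of 135 repeats of the called cell type markers, added after seeing the data, 122 kept the call and 13 lost it.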
